A study of Mus musculus with 20 samples.

Results

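The comparison described here asked which genes had changed in embryonic mesenchymal cells (eMC) of the mouse within 48 hours of receiving CIC-DUX4. It rests on 8 of the 20 arrays of the series, chosen by their titles: 4 arrays of eMC transduced with CIC-DUX4 (replicates 5 to 8) and 4 arrays of eMC transduced with the empty vector (replicates 4 to 7). Both viruses were pMYs retroviruses that also carry IRES-GFP, and both were brought in by spinofection. The cells are primary and were grown in serum-containing medium. The labels give neither an age nor a strain for the embryos, nor the share of cells that took up the virus. They do not say whether the arrays came from separate cultures. The p-values below thus cover no more than the spread among these arrays, which may be technical. The other 12 arrays hold CDS tumors, which grew in nude mice from eMC carrying CIC-DUX4 (6 arrays), and ES tumors (6 arrays). They enter the normalization, the filter on dim signals and the choice of each gene's probe set. Beyond that they enter a fit with all 4 groups, the Mycn values and a description near the end.

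CIC (Capicua) is an HMG-box transcriptional repressor that binds short octamers in DNA and holds down genes that receptor tyrosine kinase and MAPK signalling would otherwise release, the PEA3 factors Etv1, Etv4 and Etv5 among them. DUX4 is a double-homeobox transcription factor of the early human embryo with a strong activation domain at its C terminus. The fusion of both, found in a group of round cell sarcomas, keeps the DNA binding of CIC and gains the activation domain, and is known as an activator of CIC target genes. Embryonic mesenchymal cells are connective tissue progenitors that can give rise to cartilage, bone, tendon and fat.

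The measurements are signals of perfect-match probes on Affymetrix mouse arrays, 1 array per sample, and 12343 genes were tested, each by 1 probe set. Precision is limited by there being 4 arrays in each group. The deposited arrays share a trimmed mean on the linear scale but differ in the shape of their distributions, and the groups do not overlap in this. The 75th percentile of the log2 signal was 8.53 to 8.94 in the 4 eMC CIC-DUX4 arrays and 4.10 to 6.97 in the 4 eMC empty arrays. The 99th percentile was 13.2 to 13.7 in eMC CIC-DUX4 and 14.2 to 15.0 in eMC empty. The 4 hybridization controls, labelled bacterial transcripts added to every array, averaged 10.26 ± 0.23 (SD, n = 4) in eMC CIC-DUX4 and 12.41 ± 0.44 (n = 4) in eMC empty, a log2 difference of -2.15 (exact two-sided permutation p = 0.0286, the smallest that 4 against 4 arrays allow, and 0.0368 adjusted over 9 control measures). The poly-A controls, bacterial transcripts added to the RNA before labelling, did not shift together: dap differed by -0.88 and phe by 3.46. The difference between dap and phe was 2.64 to 4.09 in eMC CIC-DUX4 and 7.37 to 8.12 in eMC empty. The amounts added are not given in the labels, and the part of these shifts in the results below was not tested.

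**Figure D1:**
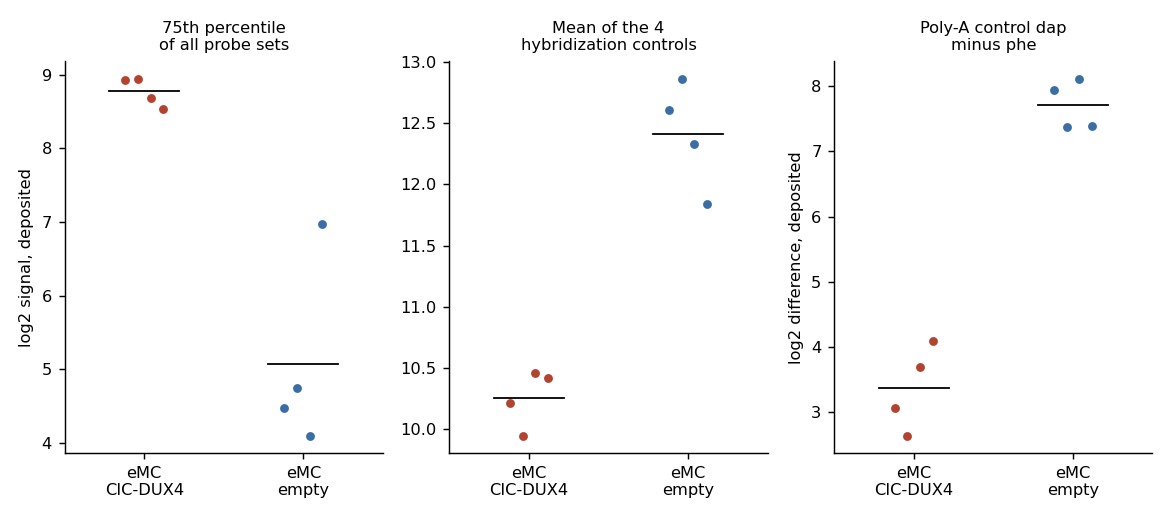
Array measures of the deposited log2 values, 1 point per array, with the mean as a line: the 75th percentile of all probe sets, the mean of the 4 hybridization controls, and the poly-A control dap minus phe. Each of the 3 measures separates the 4 eMC CIC-DUX4 arrays from the 4 eMC empty arrays, and the hybridization controls are lower in eMC CIC-DUX4 while the 75th percentile is higher.

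The median log2 change of all genes tested was 2.07 on the deposited values and 0.01 after quantile normalization, which gives all arrays the same distribution. A call required an adjusted p under 0.05 (limma, Benjamini-Hochberg over all genes) and a change of at least 1 log2 unit. Deposited values called 6303 genes (51.1% of those tested), 5733 higher (46.4%) and 570 lower (4.62%). Quantile-normalized values called 1597 (12.9%), 1003 higher (8.13%) and 594 lower (4.81%); without regard to size, 50.9% of all genes had values that did not overlap between the groups on that scale. In the same direction on both scales there were 1002 genes (8.12%), 955 higher genes (7.74%) and 47 lower genes (0.381%), and 971 of the 1002 had values that did not overlap between the groups on either scale. Of the 594 genes called lower after quantile normalization, 240 were called higher on the deposited values and 307 were not called there. The direction of a group of genes is relative to the scale. With each array scaled to the same 75th percentile, 81 genes were called higher and 3391 lower, and the IGF axis, the BMP and TGF-beta list and the p53 targets, with 6, 6 and 5 members called higher below, then held 2, 2 and 0 higher and 4, 6 and 7 lower calls. All log2 values below are quantile-normalized unless they are called deposited, are given in the order of the replicate numbers, and are relative to all other genes.

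**Figure D2:**
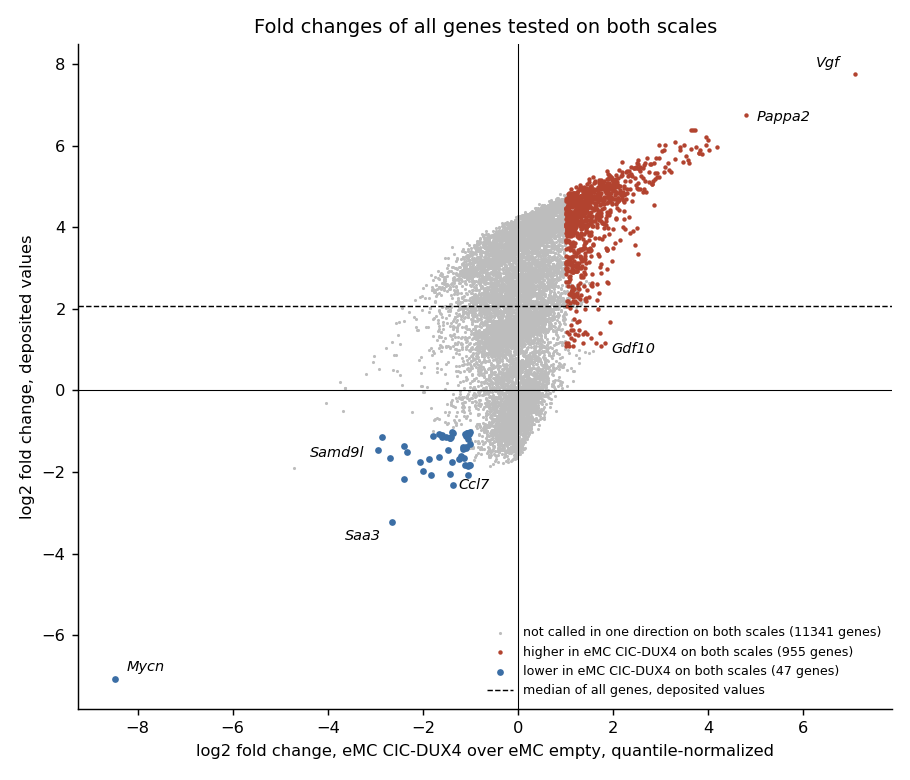
Log2 fold change of eMC CIC-DUX4 over eMC empty for the 12343 genes tested, after quantile normalization (horizontal) and on the deposited values (vertical), with 1 point per gene and the deposited median of 2.07 as a dashed line. The 955 genes higher on both scales lie at the upper right, with Vgf and Pappa2 farthest out, and the 47 lower on both scales at the lower left, with Mycn alone at the far end.

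Dim signals bear on the higher genes above all. Each array but eMC CIC-DUX4 6 showed a dip in its distribution between a dim and a bright part; the bright part held 38.5 to 70.9% of the probe sets in the 3 arrays of eMC CIC-DUX4 that have one, and 11.1 to 26.9% in eMC empty. Of the 955 genes higher on both scales, 571 lay below the dip in all 4 eMC empty arrays and 929 in at least 1. For genes below the dip in all 4 eMC empty arrays the fold is given as a lower bound against the dip on the quantile scale, or not at all where that bound is under 1, which leaves 15 bounds and 556 genes with levels only. Among genes given a fold below, Etv5, Spry1, Igfbp2, Ntrk2, Nqo1, Lss, Cd14, Stmn2 and Sparcl1 lay below the dip in 3 eMC empty arrays. So did Cic, Ptch1, Pdgfd, Efnb1, Zmat3 and Slc2a3, while Osr1, Sesn1 and Hoxa10 did in 2, and Gadd45a, Cd68 and Col5a3 in 1. The eMC empty mean of Igf1r, 8.87, lay under the dips of eMC empty 4 (9.55) and 5 (10.39). That of Bmp4, 9.66, lay under the dip of eMC empty 5. The folds of these genes rest in part or mostly on dim eMC empty signals. All 47 genes lower on both scales lay above the dip in every array that has one. Above the dip on every array with one were 2897 genes, of which 41 were called higher (1.42%) and 113 lower (3.9%) after quantile normalization. Because the dip sits at 6.88 to 10.4 in eMC empty and at 2.57 to 4.59 in eMC CIC-DUX4 on the quantile scale, this subset leaves out genes that were dim in eMC empty.

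Of the 955 higher genes, 26 had a signal above the dip on every array with one, so that both sides of the fold were measured. They were picked out after their values were seen. On the deposited values each of the 26 changed by less than the median of all genes, by -0.99 to -0.073 relative to it. Thbs4, a thrombospondin of the extracellular matrix, measured 12.85, 12.85, 12.84 and 12.85 in eMC CIC-DUX4, against 10.99, 11.11, 10.80 and 10.77 in eMC empty. Its log2 fold change was 1.93 ± 0.07 (SE; adjusted p = 3.4e-10), the highest of the 26. Igf1, the insulin-like growth factor that drives growth of connective tissue, measured 13.76, 13.59, 13.71 and 13.69 in eMC CIC-DUX4, against 11.84, 11.91, 11.72 and 11.95 in eMC empty, a log2 fold change of 1.83 ± 0.05 (adjusted p = 5.37e-11). In both genes the lowest eMC CIC-DUX4 array lay more than 1 log2 unit above the highest eMC empty array. Gdf10, a BMP-family ligand, measured 13.59, 13.62, 13.54 and 13.56 in eMC CIC-DUX4, against 12.01, 11.88, 11.77 and 11.70 in eMC empty, with a log2 fold change of 1.74 ± 0.05 (adjusted p = 1.79e-10). Irs1, the adaptor that carries insulin and IGF1 receptor signals, rose less, by 1.00. Among the other members were Col2a1, the main collagen of cartilage (1.63), Itih5, which binds hyaluronan (1.73), Reck, an inhibitor of matrix metalloproteases (1.46), Slc40a1, the iron exporter ferroportin (1.42), Agrn, the heparan sulfate proteoglycan agrin (1.19), and Pdcd4, an inhibitor of translation initiation (1.29). The interferon-inducible Ifitm1 was also among them (1.69). So were Mpeg1 (1.12), Tyrobp (1.11) and Cd53 (1.02), which are genes of macrophages and other leukocytes. In bulk samples like these, fewer cells of a type and less RNA per cell cannot be told apart. The log2 of the summed signal of 6 macrophage markers was 14.92 to 14.95 in eMC CIC-DUX4 and 14.06 to 14.16 in eMC empty. Of the 6, 4 had a change above 0, Lyz2 was above the dip on every eMC empty array, and 3 lay below it on all 4. The part of this shift in the leukocyte genes named here and below was not tested.

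The transcript of Cic itself measured 8.16, 7.92, 8.04 and 8.02 in eMC CIC-DUX4, against 7.82, 7.71, 7.73 and 7.50 in eMC empty, a log2 fold change of 0.35 ± 0.13 with an adjusted p of 0.0365, short of the size asked for a call; its deposited difference was 3.84. The labels do not say whether the probes lie within the part of CIC that the fusion holds, or match the transcript the virus carries, so this value does not check the labels. Of the PEA3 factors, Etv5 rose: it measured 10.34, 10.06, 10.51 and 10.55 in eMC CIC-DUX4, against 7.58, 7.54, 7.36 and 7.50 in eMC empty, a log2 fold change of 2.87 ± 0.12 (adjusted p = 1.77e-09). Etv1 was called higher as well, at 7.41 to 7.48 in eMC CIC-DUX4, against 5.05 to 5.88 in eMC empty (adjusted p = 2.36e-06), while its other 2 probe sets were not called. Etv4 was not called, with levels of 2.16 to 2.40 in eMC CIC-DUX4, against 1.92 to 2.43 in eMC empty. The 16 other ETS factors tested held 0 called genes by limma, with 2 above and 1 below at an unadjusted p under 0.05 (median log2 change 0.01). Vgf, a precursor of secreted neuropeptides, lay below the dip in all 4 eMC empty arrays and was at least 2.96-fold higher at 10.01 to 10.89 in eMC CIC-DUX4, against 3.08 to 3.67 in eMC empty.

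The highest genes were chosen outside the PEA3 and cartilage genes and Vgf, among genes called on both scales. Their mean in eMC CIC-DUX4 had to lie above the 75th percentile of all probe sets. The choice also required that the values of the groups did not overlap on either scale. The 14 genes with the highest fitted log2 fold change included the secreted proteins Pappa2, Sparcl1, Dkk2 and Bmp2 and the membrane proteins Clec7a, Enpep, Nt5e and Kcnj8. Pappa2, a protease that frees insulin-like growth factors from their binding proteins (chromosome 1, 158711727 to 158960451, GRCm38.p6), measured 9.78, 9.77, 9.75 and 9.62 in eMC CIC-DUX4, against 4.65, 5.33, 4.99 and 4.79 in eMC empty. It was at least 1.86-fold higher (adjusted p = 3.77e-10). Stmn2, a tubulin-binding protein of growing axons, measured 11.36, 11.36, 11.33 and 11.34 in eMC CIC-DUX4, against 7.31, 7.55, 6.79 and 7.72 in eMC empty, a log2 fold change of 4.01 ± 0.16 (adjusted p = 1.28e-09), and its other probe set gave 4.78. Sparcl1, a matrix glycoprotein of the SPARC family, measured 11.91, 11.90, 11.98 and 11.94 in eMC CIC-DUX4, against 8.02, 8.23, 7.83 and 8.36 in eMC empty, with a log2 fold change of 3.82 ± 0.10 (adjusted p = 5.39e-11). For Stmn2 and Sparcl1 the signal in eMC empty was below the dip on 3 of 4 arrays. Dkk2, a secreted modulator of Wnt receptors, measured 10.05, 9.91, 9.98 and 10.08 in eMC CIC-DUX4, against 5.89, 6.18, 6.82 and 6.24 in eMC empty and was at least 2.25-fold higher. Clec7a, the beta-glucan receptor Dectin-1 of myeloid cells, measured 9.87, 9.90, 10.06 and 9.97 in eMC CIC-DUX4, against 6.54, 6.16, 6.44 and 5.92 in eMC empty and was at least 2.17-fold higher. Enpep, the membrane aminopeptidase that cleaves angiotensin, measured 10.37, 10.60, 10.48 and 10.50 in eMC CIC-DUX4, against 7.04, 6.95, 7.09 and 6.35 in eMC empty and was at least 3.14-fold higher, the largest bound of the 14. Nt5e, the ectoenzyme CD73 that makes adenosine, measured 8.99, 8.80, 8.98 and 8.70 in eMC CIC-DUX4, against 4.94, 4.83, 5.06 and 4.81 in eMC empty; its bound was 1.02-fold, and its other probe set was also called higher at 1.15. The groups were separate in every one of these genes because the choice required it. The widest spread among eMC empty arrays was that of Stmn2 and Dkk2.

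The other 7 of the 14 were below the dip in all 4 eMC empty arrays with no fold to give. Bmp2, a ligand that induces bone and cartilage, had levels of 8.35 to 8.90 in eMC CIC-DUX4, against 4.19 to 4.94 in eMC empty (adjusted p = 9.92e-09). Sprr2d, a cornified envelope protein of skin, stood at 7.88 to 8.46 in eMC CIC-DUX4, against 3.97 to 4.35 in eMC empty, and Zc3h6, a zinc finger protein of the CCCH type, at 7.53 to 7.84 in eMC CIC-DUX4, against 3.46 to 4.52 in eMC empty. Cox6b2, a respiratory chain subunit best known from testis, had levels of 7.45 to 7.91 in eMC CIC-DUX4, against 3.67 to 4.29 in eMC empty. Prkcb, a protein kinase C, stood at 8.10 to 8.33 in eMC CIC-DUX4, against 4.25 to 4.71 in eMC empty, but its other probe set, at 0.78, was not called. The potassium channel gene Kcnj8 stood at 7.50 to 7.89 in eMC CIC-DUX4, against 3.71 to 4.52 in eMC empty. N4bp2l1 had levels of 8.17 to 8.39 in eMC CIC-DUX4, against 4.23 to 5.03 in eMC empty, but its other probe set changed by -0.08 and was not called. Among all genes higher on both scales, 362 had another probe set, and in 126 of them (34.8%) at least 1 other was called higher, against 9.34% of all 4721 genes with another probe set; in 10 another was called lower.

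**Figure D3:**
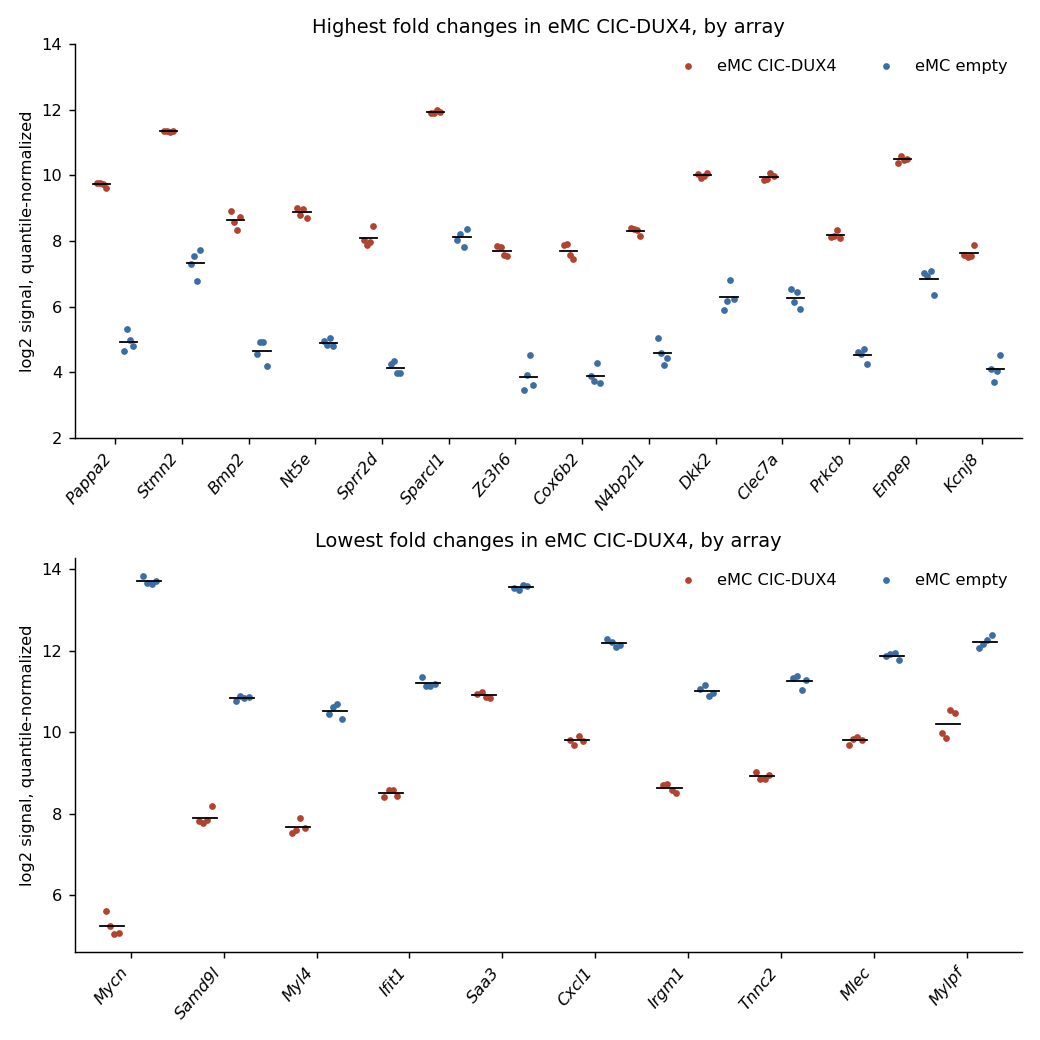
Quantile-normalized log2 signal of each array for the 14 highest and the 10 lowest genes outside the PEA3 and cartilage lists and Vgf, with eMC CIC-DUX4 to the left of eMC empty and the mean as a line. The values of the groups do not overlap in any of the 24 genes, which the choice of these genes required. Mycn, at 5.04 to 5.60 in eMC CIC-DUX4 and 13.63 to 13.83 in eMC empty, has the widest gap.

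Among the lists of secreted ligands and their receptors, the IGF axis comes first because it holds Igf1 and Pappa2. Of this axis, 6 of 14 members tested were called higher (42.9%, against 8.13% of all genes) and 0 lower by limma, with 9 above and 2 below at an unadjusted p under 0.05; the median log2 change was 0.69. All 6 were called on both scales. Beside Igf1 and Pappa2 these were the receptor gene Igf1r, a log2 fold change of 1.50 ± 0.08 (adjusted p = 2.02e-08), the binding proteins Igfbp6 and Igfbp2, and Stc1, a glycoprotein that inhibits the related protease Pappa. Igfbp2 measured 9.62, 9.56, 9.60 and 9.66 in eMC CIC-DUX4, against 7.30, 7.90, 7.95 and 7.31 in eMC empty, a log2 fold change of 1.99 ± 0.16 (adjusted p = 4.04e-07). Stc1 stood at 8.09 to 8.18 in eMC CIC-DUX4, against 6.12 to 6.36 in eMC empty (adjusted p = 1.6e-07). Of the other 8 members, 5 had a change below 0, among them Igfbp5 (-1.30, adjusted p = 0.167), Igf2bp1 (-0.93) and Igfbp3 (-0.60), named after their values were seen. With all 4 groups in the fit 3 of the 14 were called higher and 0 lower.

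Of the BMP and TGF-beta list, 6 of 21 were called higher on both scales (28.6%) and 0 lower, with 17 above and 0 below at an unadjusted p under 0.05 (median 0.39). They were the ligands Bmp2, Bmp4, Bmp5, Gdf10 and Tgfb2 and the inhibitory Smad6. Bmp4 measured 11.41, 11.40, 11.40 and 11.38 in eMC CIC-DUX4, against 9.65, 9.77, 9.51 and 9.72 in eMC empty, a log2 fold change of 1.74 ± 0.07 (adjusted p = 8.82e-10). Tgfb2 had levels of 7.59 to 7.73 in eMC CIC-DUX4, against 3.88 to 6.46 in eMC empty, the eMC empty array at the top being replicate 7. Wnt pathway genes gave 5 of 19 higher (26.3%), 4 on both scales: the ligands Wnt11 and Wnt16, the inhibitor Dkk2 and Nkd1, an intracellular antagonist, with Wif1 on the quantile scale alone. Wnt11 stood at 7.34 to 7.69 in eMC CIC-DUX4, against 4.01 to 4.82 in eMC empty. Nkd1 stood at 6.78 to 7.07 in eMC CIC-DUX4, against 5.31 to 5.55 in eMC empty, and its other probe set was not called. Of Notch and Hedgehog genes, Ptch1, the Hedgehog receptor, was the 1 of 17 called, with a log2 fold change of 1.45 ± 0.17, and its other probe set, at -0.32, was not called.

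Growth factor ligands outside these families were called higher in 4 of 23 genes (17.4%) and lower in 1 (4.35%), against 8.13% and 4.81% of all genes. Pdgfd, a PDGF receptor beta ligand, rose by 1.46 (adjusted p = 9.78e-06) and its other probe set was not called; Gdnf, the ligand of RET, had levels of 5.31 to 5.68 in eMC CIC-DUX4, against 3.51 to 4.24 in eMC empty, and Fgf21, an endocrine FGF, 5.69 to 6.50 in eMC CIC-DUX4, against 3.75 to 4.79 in eMC empty. Receptor tyrosine kinases were higher in 6 of 27 (22.2%). Ntrk2, the BDNF receptor TrkB, measured 10.51, 10.53, 10.65 and 10.50 in eMC CIC-DUX4, against 8.91, 8.69, 8.40 and 8.53 in eMC empty, a log2 fold change of 1.91 ± 0.11 (adjusted p = 2.29e-08). Its other probe sets disagreed, 1 at 4.57 and called, 1 at -0.32 and not called. Kit, the stem cell factor receptor, stood at 5.91 to 6.12 in eMC CIC-DUX4, against 3.78 to 4.56 in eMC empty, and Fgfr3, a brake on cartilage growth, at 6.27 to 6.69 in eMC CIC-DUX4, against 4.72 to 5.17 in eMC empty. Of 35 guidance molecules of the semaphorin and ephrin families, 2 were called higher with all 4 groups in the fit. None of the 35 lay above the dip on every array. At an unadjusted p under 0.05 in limma, 19 were above and 2 below. In the main fit 9 of 35 were higher (25.7%), all on both scales, and 0 lower. They included Efnb1, with a log2 fold change of 1.69 ± 0.30 but 2 other probe sets not called, Sema5a at 5.57 to 6.20 in eMC CIC-DUX4, against 4.15 to 4.83 in eMC empty, whose other probe set was called too, and Epha7 at 7.07 to 7.37 in eMC CIC-DUX4, against 5.46 to 5.79 in eMC empty, whose other 2 were not.

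Enzymes at the outer face of the membrane were higher in 8 of 17 (47.1%), 7 on both scales, and lower in 0, with 13 above and 1 below at an unadjusted p under 0.05. Beside Enpep and Nt5e these included Enpp3, a nucleotide pyrophosphatase, at 5.92 to 6.16 in eMC CIC-DUX4, against 3.53 to 4.46 in eMC empty, with its other probe set also called. Integrin subunits were higher in 5 of 16 (31.2%) and lower in 1 (6.25%), against 8.13% and 4.81% of all genes. With all 4 groups in the fit, 1 integrin was called higher and 1 lower. Itga8, which pairs with integrin beta 1 on mesenchymal cells, measured 8.92, 8.92, 8.71 and 8.90 in eMC CIC-DUX4, against 5.51, 5.04, 5.62 and 5.35 in eMC empty and was at least 1.02-fold higher; its other probe set, at 0.88, fell short of a call. Itgb2, the beta chain of leukocyte integrins, stood at 7.33 to 7.74 in eMC CIC-DUX4, against 5.13 to 5.67 in eMC empty, and Itga7, a laminin receptor of muscle, at 5.36 to 5.96 in eMC CIC-DUX4, against 3.53 to 4.15 in eMC empty. In the fibrillar and basement membrane matrix, 6 of 35 genes were higher (17.1%, against 8.13% of all genes), 5 on both scales. Among them were Col5a3, with a log2 fold change of 1.56 ± 0.23, and the tenascin Tnxb, at 7.60 to 8.01 in eMC CIC-DUX4, against 4.54 to 5.61 in eMC empty. The laminin chain Lama2 stood at 6.01 to 6.48 in eMC CIC-DUX4, against 4.17 to 4.66 in eMC empty. The cartilage list, which had been singled out in these data before, held 16 higher of 22; Hapln1, the link protein of aggrecan, stood at 8.15 to 8.74 in eMC CIC-DUX4, against 4.82 to 5.33 in eMC empty and the proteoglycan Snorc at 6.48 to 7.26 in eMC CIC-DUX4, against 3.09 to 3.63 in eMC empty.

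Among transcription factors, mesenchymal and limb factors were called higher in 5 of 33 (15.2%, 4 on both scales) and lower in 1 (3.03%). Over all genes the shares were 8.13% and 4.81%. Osr1, a zinc finger factor of limb and kidney mesenchyme, measured 10.94, 10.86, 10.96 and 10.84 in eMC CIC-DUX4, against 9.47, 9.38, 9.72 and 9.42 in eMC empty, a log2 fold change of 1.40 ± 0.08 (adjusted p = 3.12e-08); Tbx4, a hindlimb factor, stood at 5.80 to 6.00 in eMC CIC-DUX4, against 3.90 to 4.74 in eMC empty and Tbx3 at 7.44 to 7.61 in eMC CIC-DUX4, against 5.71 to 6.93 in eMC empty. Hox genes were higher in 2 of 24 (8.33%, near the 8.13% of all genes): Hoxa10, with a log2 fold change of 1.08 ± 0.12, and Hoxb2, at 7.49 to 7.80 in eMC CIC-DUX4, against 6.08 to 6.94 in eMC empty. Zinc finger proteins named Zfp were higher in 38 of 242 (15.7%) and lower in 4, with 0 lower on both scales, and 163 of the 242 lay below the dip in all 4 eMC empty arrays. Their median level was 5.79 in the eMC with CIC-DUX4, against 5.52 with the empty vector. With all genes cut into 5 bins by mean level, 13.2% were called higher in bin 2 and 13.2% in bin 3, which together span levels of 3.98 to 8.57. The 15.2% of the mesenchymal and limb list, with a median level of 5.90 in eMC CIC-DUX4, lies near these shares. So does the 17.4% of the growth factor ligands, with a median level of 6.71 in eMC CIC-DUX4. Neural transcription factors held 0 calls of 12 by limma (3 above and 3 below at an unadjusted p under 0.05). Of the genes that DUX4 or mouse Dux switch on in cleavage-stage embryos, 4 of 37 passed the filter on dim signals and 0 were called (1 above and 1 below at an unadjusted p under 0.05).

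Of the MAPK feedback list, which holds several known CIC targets, 3 of 18 were called higher (16.7%, against 8.13% of all genes) and 0 lower. Its median level was 8.04 in eMC CIC-DUX4, and 13.2% of all genes in level bin 3 were called higher. Spry1, an inhibitor of receptor tyrosine kinase signalling, measured 10.09, 10.09, 10.07 and 10.03 in eMC CIC-DUX4, against 7.74, 7.76, 8.14 and 8.11 in eMC empty, a log2 fold change of 2.13 ± 0.12 (adjusted p = 1.43e-08). Il17rd, an FGF antagonist, stood at 6.67 to 7.20 in eMC CIC-DUX4, against 4.99 to 5.33 in eMC empty, and Fgfbp1, a carrier of FGFs, at 7.84 to 8.42 in eMC CIC-DUX4, against 5.30 to 5.74 in eMC empty. Dusp6 and Spry4, picked out as other feedback genes after their values were seen, had adjusted p of 3.67e-06 and 0.00016 with log2 fold changes of 0.76 and 0.80, below the size asked for.

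Targets of p53 were higher in 5 of 21 (23.8%), all on both scales, and lower in 0, with 12 above and 4 below at an unadjusted p under 0.05. Gadd45a, a growth arrest gene, measured 11.96, 11.95, 12.05 and 11.88 in eMC CIC-DUX4, against 9.58, 9.23, 9.49 and 9.70 in eMC empty, a log2 fold change of 2.46 ± 0.09 (adjusted p = 5.97e-10). Sesn1, a stress-inducible inhibitor of mTORC1, measured 11.00, 11.09, 11.16 and 11.10 in eMC CIC-DUX4, against 9.27, 8.67, 8.60 and 8.44 in eMC empty, a log2 fold change of 2.34 ± 0.14 (adjusted p = 4.33e-08), and both of its other probe sets were called higher. Zmat3, an RNA-binding protein, rose by 1.38. The remaining 2 were Pmaip1 and Polk. In the list of metal and oxidative stress the directions were mixed, 3 higher and 3 lower of 23. Each is 13%, against 8.13% higher and 4.81% lower of all genes. The quinone reductase Nqo1 measured 9.46, 9.36, 9.91 and 9.79 in eMC CIC-DUX4, against 7.06, 7.37, 6.98 and 7.72 in eMC empty, a log2 fold change of 2.34 ± 0.18. The glutathione transferase Gsta2 stood at 7.69 to 8.09 in eMC CIC-DUX4, against 4.96 to 5.42 in eMC empty, but its other probe set, at 0.81, was not called. Mt1, a metallothionein, fell: 12.45, 12.48, 12.45 and 12.43 in eMC CIC-DUX4, against 13.81, 13.84, 13.81 and 13.87 in eMC empty, a log2 fold change of -1.38 ± 0.03 (adjusted p = 1.91e-12). In metabolism, Lss, lanosterol synthase of the cholesterol pathway, rose by 2.03 (adjusted p = 3.46e-08). Slc2a3, a glucose transporter, rose by 1.51, while its other probe set, at 0.99, was not called. Angptl4, an inhibitor of lipoprotein lipase, rose by 1.54, while Ch25h, which makes 25-hydroxycholesterol, had a log2 fold change of -1.59 ± 0.08.

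**Figure D4:**
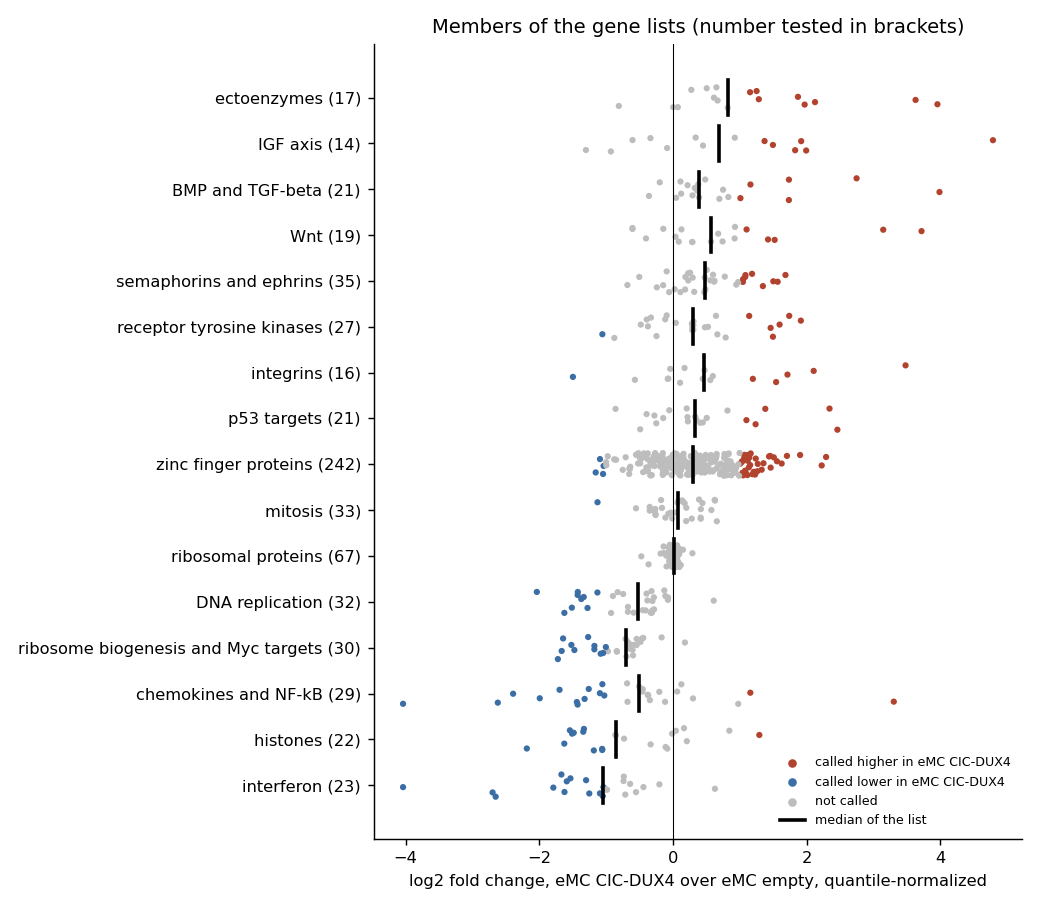
Log2 fold change of eMC CIC-DUX4 over eMC empty (quantile-normalized) of every tested member of 16 gene lists, 1 point per gene, coloured by whether the gene was called, with the list median as a bar. The interferon, histone, ribosome biogenesis, chemokine and DNA replication lists have medians between -1.05 and -0.505, the ribosomal proteins lie near 0, and the ectoenzyme and IGF lists have the highest medians.

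The lowest gene was Mycn, a MYC family transcription factor. Its probe set in the fit measured 5.60, 5.25, 5.04 and 5.07 in eMC CIC-DUX4, against 13.83, 13.65, 13.63 and 13.71 in eMC empty, a log2 fold change of -8.47 ± 0.12 (adjusted p = 3.09e-13; deposited -7.06). The other 2 Mycn probe sets read between 2.20 and 3.49 on all 8 arrays and were not called, so the probe sets of this gene disagree. The probe set in the fit read 11.91 to 12.83 in the CDS tumors and 11.98 to 13.04 in the ES tumors. Myc was not called (0.11, adjusted p = 0.262).

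Genes of the interferon response were lower as a group on the quantile scale. Interferons act on antiviral genes through a response element in their promoters. Of 23 members tested, 13 were called lower (56.5%, against 4.81% of all genes) and 0 higher by limma, with 21 below and 1 above at an unadjusted p under 0.05, and the median log2 change was -1.05. On the deposited values the median was 0.72, which lies below the 2.07 of all genes. Of the 13, 2 were called lower there too (Ifit1 and Usp18), 4 were called higher and 7 were not called. Above the dip on every array were 8 members, of which 4 were called lower. Without eMC CIC-DUX4 5 and 6 the quantile count was 13, and it was 12 to 15 when each array was left out in turn. With all 4 groups in the fit 6 were lower and 0 higher, and with the arrays scaled to the hybridization controls 0 were lower and 19 higher.

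Ifit1, which binds viral RNA, measured 8.41, 8.57, 8.58 and 8.43 in eMC CIC-DUX4, against 11.35, 11.12, 11.13 and 11.18 in eMC empty, a log2 fold change of -2.70 ± 0.08 (adjusted p = 1.33e-10; deposited -1.66). Usp18, which removes ISG15 and damps the interferon receptor, measured 9.70, 9.76, 9.64 and 9.46 in eMC CIC-DUX4, against 11.31, 11.23, 11.31 and 11.38 in eMC empty, a log2 fold change of -1.67 ± 0.07 (adjusted p = 2.85e-09; deposited -1.06). Both genes were lower on all 4 eMC CIC-DUX4 arrays than on any eMC empty array. For Ifit1, one of the 10 lowest genes, the choice required this. Samd9l and Irgm1, both interferon-inducible antiviral or antimicrobial genes, were among the 10 lowest genes. Samd9l measured 7.81, 7.76, 7.83 and 8.18 in eMC CIC-DUX4, against 10.77, 10.88, 10.85 and 10.86 in eMC empty, a log2 fold change of -2.94 ± 0.10 (adjusted p = 4.53e-10; deposited -1.46). Irgm1, an immunity-related GTPase, measured 8.70, 8.72, 8.57 and 8.51 in eMC CIC-DUX4, against 11.06, 11.15, 10.89 and 10.95 in eMC empty, a log2 fold change of -2.39 ± 0.09 (adjusted p = 5.44e-10; deposited -1.37). The remaining 11 called members, named after their values were seen, were Cxcl10, Gbp2, Ifit3, Mx2, Oasl2, Stat2, Ddx58, Rsad2, Ifi35, Oasl1 and Parp14. Cxcl10, a chemokine induced by interferon, had the largest difference of the list: 4.99, 5.06, 5.26 and 4.94 in eMC CIC-DUX4, against 8.73, 9.13, 9.27 and 9.26 in eMC empty, a log2 fold change of -4.04 ± 0.17 (adjusted p = 1.61e-09), but its deposited difference was -0.30 and not called. Ifitm1, given above, went the other way on both scales.

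Promoter windows from RefSeq (GRCm38.p6, 250 bases before to 50 after each annotated start) were searched on both strands for the core of the interferon response element, taken as GAAA followed, after 2 bases of any kind, by GAAA. It was found in 7 of the 10 windows available for the members called lower (70%), in 9 of 22 windows of all members tested (40.9%) and in 2.84% of the 12634 windows of all genes tested. The list is made of response genes, many of them known for such elements. Below are 60 bases upstream of the start of Ifit1 and Irgm1, shown because both are interferon-inducible and among the 10 lowest genes, 5′ to 3′ on the gene's strand, with every match on either strand in capitals. Overlapping matches run together.
Ifit1, chr19:34640779-34640838, strand plus: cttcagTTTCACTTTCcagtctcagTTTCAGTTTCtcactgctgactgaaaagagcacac
Irgm1, chr11:48871421-48871480, strand minus: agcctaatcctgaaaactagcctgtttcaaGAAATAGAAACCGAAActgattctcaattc
Saa3 also held a match. The same windows were searched for the octamers bound by CIC, TGAATGAA, TGAATGGA, TCAATGAA and TCAATGGA, on both strands. A match was present in 1.91% of the 996 windows of genes higher on both scales, in 2.41% of the windows of all genes tested and in 3.84% of all 32851 RefSeq windows. Of the 14 highest genes, Clec7a held one upstream of its start, and its window is shown with the octamer in capitals.
Clec7a, chr6:129472939-129472998, strand minus: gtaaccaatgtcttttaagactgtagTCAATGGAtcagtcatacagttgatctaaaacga
These windows are short, and a match or its absence describes only these letters.

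Chemokines and other NF-kB targets were lower in 12 of 29 (41.4%), 4 of them on both scales, and higher in 2; on the deposited values 6 were lower and 13 higher. Cxcl1, a neutrophil chemokine, measured 9.81, 9.68, 9.91 and 9.79 in eMC CIC-DUX4, against 12.29, 12.22, 12.10 and 12.15 in eMC empty, a log2 fold change of -2.39 ± 0.06 (adjusted p = 4.71e-11; deposited -2.18). Ccl7, a monocyte chemokine, measured 11.51, 11.49, 11.46 and 11.47 in eMC CIC-DUX4, against 12.86, 12.90, 12.95 and 12.96 in eMC empty, a log2 fold change of -1.44 ± 0.04 (adjusted p = 2.9e-11; deposited -2.06). The other 2 on both scales were Ccl2 (-1.06) and Cxcl5 (-1.03), and all 4 lay above the dip on every array with one. Of those lower on the quantile scale alone, Il6 fell by 1.70, and Cxcl10, Cxcl2 and Ccl20 fell by more. All of these were named after their values were seen. The higher pair was Il33, an alarmin, and Cxcl13, a B-cell chemokine, which was at least 1.36-fold higher at 9.20 to 9.36 in eMC CIC-DUX4, against 5.65 to 6.47 in eMC empty and whose other probe set was called too. Of the acute phase and complement list, 2 of 16 were lower (12.5%, against 4.81% of all genes) and 1 higher (6.25%, against 8.13%). Saa3, an acute phase apolipoprotein, measured 10.92, 10.98, 10.87 and 10.83 in eMC CIC-DUX4, against 13.55, 13.49, 13.61 and 13.57 in eMC empty, a log2 fold change of -2.65 ± 0.04 (adjusted p = 5.22e-13; deposited -3.22). Hp, haptoglobin, had a log2 fold change of -1.83 ± 0.06 (adjusted p = 1.79e-10; deposited -2.06). Of innate receptors and lectins, 5 of 22 were called higher (22.7%) and 1 lower (4.55%), against 8.13% and 4.81% of all genes. At an unadjusted p under 0.05 in limma, 10 were above and 6 below (median 0.22). Cd14, the co-receptor of TLR4, measured 9.81, 9.92, 9.87 and 9.93 in eMC CIC-DUX4, against 8.45, 8.04, 7.85 and 8.05 in eMC empty, a log2 fold change of 1.79 ± 0.12, and Tlr4 was called higher as well.

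**Figure D5:**
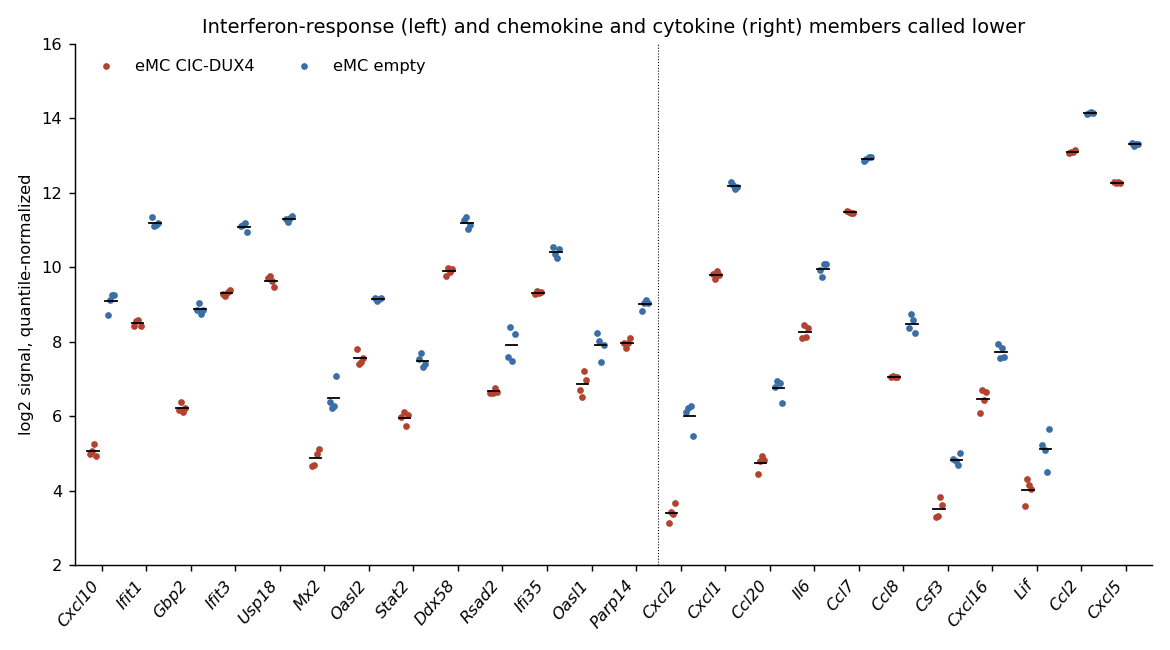
Quantile-normalized log2 signal of each array for the 13 interferon-response genes called lower (left of the dotted line) and the other 11 chemokine and cytokine genes called lower (right), with eMC CIC-DUX4 to the left of eMC empty and the mean as a line. In each gene the mean of the 4 eMC CIC-DUX4 arrays lies below that of the 4 eMC empty arrays; Ccl2, Cxcl5, Ccl7 and Cxcl1 are the brightest of those on the right.

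Genes of ribosome biogenesis and other known Myc targets were lower in 11 of 30 (36.7%), 2 on both scales, and higher in 0, with 29 below and 0 above at an unadjusted p under 0.05 (median -0.70); on the deposited values 11 were lower and 6 higher. Nop56, a core protein of box C/D nucleolar particles, measured 9.90, 9.96, 9.93 and 10.06 in eMC CIC-DUX4, against 11.42, 11.49, 11.64 and 11.38 in eMC empty, a log2 fold change of -1.52 ± 0.07 (adjusted p = 3.32e-09; deposited -1.14). Nme1, a nucleoside diphosphate kinase, measured 12.25, 12.26, 12.26 and 12.27 in eMC CIC-DUX4, against 13.20, 13.31, 13.33 and 13.37 in eMC empty, a log2 fold change of -1.04 ± 0.04 (adjusted p = 3.03e-10; deposited -1.85), and its other probe set, at -0.50, was not called. The E-box CACGTG, which Myc proteins bind, was in 5 of 10 windows of the members called lower (50%). It was in 8 of 30 windows of all members tested (26.7%) and in 9.66% of the windows of all genes tested. This list too is made of genes known for it. The ribosomal proteins themselves, 67 tested and 64 of them above the dip on every array, held 0 calls by limma (23 above and 16 below at an unadjusted p under 0.05), with a median of 0.01.

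DNA replication genes were lower in 9 of 32 (28.1%), 1 on both scales, and higher in 0, with 26 below and 1 above at an unadjusted p under 0.05 (median -0.52); on the deposited values 3 were lower and 10 higher. Tyms, thymidylate synthase, measured 9.98, 10.12, 10.24 and 10.21 in eMC CIC-DUX4, against 11.53, 11.57, 11.59 and 11.57 in eMC empty, a log2 fold change of -1.43 ± 0.06 (adjusted p = 2.85e-09; deposited -1.15), while neither of its other probe sets was called. The 8 others were Fen1, Mcm5, Orc1, Cdc6, Ccne2, Mcm3, Uhrf1 and Ccne1, named after their values were seen. Mitosis genes were lower in 1 of 33, with 10 below and 14 above at an unadjusted p under 0.05 (median 0.07). Histone genes were lower in 10 of 22 and higher in 1 (median -0.86), but 0 of the 10 on both scales (deposited 3 lower and 2 higher); many histone genes are close copies of each other, and their probes may share signal. The difference between the replication and mitosis lists was not tested.

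Of the 10 lowest genes, 3 are genes of striated muscle. Myl4, an atrial and embryonic myosin light chain, measured 7.52, 7.60, 7.90 and 7.65 in eMC CIC-DUX4, against 10.45, 10.63, 10.70 and 10.32 in eMC empty, a log2 fold change of -2.86 ± 0.12 (adjusted p = 1.49e-09; deposited -1.15). Tnnc2, the fast troponin C, measured 9.01, 8.85, 8.86 and 8.95 in eMC CIC-DUX4, against 11.32, 11.39, 11.04 and 11.29 in eMC empty, a log2 fold change of -2.34 ± 0.09 (adjusted p = 6.52e-10; deposited -1.51). Mylpf, a fast myosin light chain, measured 9.98, 9.86, 10.53 and 10.47 in eMC CIC-DUX4, against 12.07, 12.15, 12.26 and 12.39 in eMC empty, a log2 fold change of -2.01 ± 0.14 (adjusted p = 9.37e-08; deposited -1.96). Acta1, skeletal actin, had a log2 fold change of -1.16 ± 0.04, and Cox8b, a muscle form of a respiratory subunit, was called lower at 11.01 to 11.11 in eMC CIC-DUX4, against 11.98 to 12.24 in eMC empty. The eMC CIC-DUX4 values of Mylpf split, with replicates 5 and 6 below replicates 7 and 8. All 4 were below eMC empty, as the choice of the lowest genes required. The 6 skeletal muscle markers summed to a log2 signal of 12.37 to 12.43 in eMC CIC-DUX4 and 12.82 to 12.96 in eMC empty. Of the 6, 2 were called lower (Acta1 and Myh3) and 0 higher. Changes were below 0 in 4 and above 0 in 2, from -1.98 to 0.62. Acta1 and Myog were above the dip on every eMC empty array, and Myog was not called. The part of the shift in the summed marker signal in Myl4, Tnnc2 and Mylpf was not tested. Of the 10 lowest genes the last is Mlec, a lectin of the endoplasmic reticulum, with a log2 fold change of -2.07 ± 0.06; 1 of its other probe sets was called lower at -1.92 and 1, at 0.17, was not called. Among the 18 genes lower on both scales with another probe set, 10 (55.6%) had at least 1 other called lower, against 12.5% of all genes with another probe set, and 0 had one called higher.

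Mesenchymal markers were present in both groups: 7 of 11 were above the dip on every eMC empty array (Col1a1, Col3a1, Fn1, Prrx1, S100a4, Twist2 and Vim), and the log2 of their summed signal was 17.01 to 17.02 in eMC CIC-DUX4 and 16.99 to 17.03 in eMC empty. Of the macrophage markers, Cd68 measured 11.50, 11.46, 11.50 and 11.45 in eMC CIC-DUX4, against 9.82, 10.13, 9.90 and 10.29 in eMC empty, a log2 fold change of 1.44 ± 0.09 (adjusted p = 5.38e-08), and Ptprc, the pan-leukocyte CD45, stood at 7.32 to 7.69 in eMC CIC-DUX4, against 5.05 to 6.05 in eMC empty. Both were called higher. Neural markers summed to 11.38 to 11.41 in eMC CIC-DUX4 and 7.39 to 8.34 in eMC empty. Stmn2, at 11.33 to 11.36 in eMC CIC-DUX4 and 6.79 to 7.72 in eMC empty, made up most of this sum in eMC CIC-DUX4. It was the 1 of 5 called. Changes were above 0 in 3 of the 5 and below 0 in 2, and Tubb3 and Map2 lay below the dip on every array with one. Keratinocyte markers overlapped between the groups, at 10.94 to 11.09 in eMC CIC-DUX4 and 10.57 to 11.03 in eMC empty, with 2 of 6 called higher (Cdh1 and Trp63). Endothelial and erythroid markers overlapped too. Adipocyte markers summed to 16.20 to 16.25 in eMC CIC-DUX4 and 16.11 to 16.18 in eMC empty.

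The levels in the tumor arrays, none of which is in this comparison, were read only as a description. These arrays also took part in the normalization, the filter and the choice of probe sets. Of the 955 genes higher on both scales, 546 (57.2%) had a higher mean level in the 6 CDS tumors than in the 6 ES tumors, against 48.9% of all genes tested; of the 47 lower genes, 18 (38.3%) did. Vgf read 15.14 to 15.48 in CDS tumors and 2.91 to 8.81 in ES tumors. Pappa2 read 2.70 to 4.89 in CDS tumors and 2.21 to 2.79 in ES tumors, both far below the 9.62 to 9.78 of eMC CIC-DUX4. Stmn2 likewise read 1.95 to 3.76 in CDS tumors, and Dkk2 read 1.79 to 2.95. Others of the 14 highest genes were bright there, among them Cox6b2 at 12.08 to 12.92 and Sparcl1 at 12.28 to 13.47. In ES tumors Cox6b2 read 3.05 to 5.39 and Sparcl1 10.24 to 13.29. These genes were picked with their values known. Saa3 read 2.64 to 7.77 in CDS tumors, below both eMC groups. The tumors also hold cells of the host mouse, and the levels of tumors and cultures were not tested against each other.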

How the data were processed

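The deposited values are log2 signals, 1 column per array; the submitters' processing notes name MAS5, without a version or settings. The 104 controls among the 45141 probe sets entered no gene test; 28898 of the others had 1 gene symbol (551 several, 15588 none), 28689 of these matching a RefSeq gene of GRCm38.p6. The log2 values the authors deposited were returned to the linear scale, an offset of 1.42305 (0.25 of the median of the array medians) was added, and log2 was taken again; quantile normalization over all 20 arrays gave the main scale, and the same values without it are called deposited. A probe set was kept if above its array's median on at least 4 of 20 arrays (26897 passed, 19542 with 1 symbol); each of the 12343 genes was tested by its brightest probe set. All columns belong to listed samples, and 0 pairs of arrays were identical.

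The 4 and 4 arrays were compared with limma 3.58.1 (lmFit, eBayes with trend, two-sided) under R 4.3.3. The call asked for a Benjamini-Hochberg adjusted p over all genes under 0.05 together with a change of at least 1 log2 unit. Every adjusted p in the text comes from limma unless it says otherwise. The dip is the lowest density (bandwidth 0.35) between the dim and the bright part of an array, carried to the quantile scale by rank; its use was chosen after seeing the data. The fit and the call were tested on simulated arrays that lacked the difference in distribution between the groups. The dip, the bounds and the use of both scales were not simulated.

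Genes are named as the 14 highest and 10 lowest called on both scales with separate groups and a brighter-group mean above the 75th percentile of the quantile distribution, without predicted or clone-derived names, outside the PEA3 and cartilage lists and Vgf; up to 3 members of each of 60 lists called on both scales; and Cic. Other genes were picked with their values known, also where the text does not say so at the gene. The members and lists were chosen with earlier results of these data known. Replicate numbers 5, 6 and 7 occur in both groups, but no label says that they mark a shared culture or day, so they were not used as pairs. The deviations of same-numbered arrays correlated at 0.0017, -0.0082 and 0.0032, which on so few pairs cannot decide whether the arrays were paired. Other settings tried were the offset, the filter, the scaling, the model of the spread, the summary of probe sets, the threshold, a replicate block, each array left out, and, added after seeing the data, eMC CIC-DUX4 5 and 6 left out and scaling to the hybridization controls.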

Additional observations from a re-analysis of the deposited data

Results flagged for a closer look

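In 16 of 234 sets of 4 values of named genes (2 sets for each gene), 1 array lay far from the other 3 by Dixon's criterion, which chance alone meets in about 1 of 20 sets. In eMC CIC-DUX4, replicate 8 was high for Samd9l (8.18, the others 7.76 to 7.83) and Cdh1 (8.55, the others 8.10 to 8.17) and low for Neo1 (11.85, the others 11.90 to 11.91). Replicate 7 was low for Ptch1 (8.20, the others 8.67 to 8.70) and Itga8 (8.71, the others 8.90 to 8.92), replicate 6 was low for Mmp8 (4.36, the others 4.57 to 4.60), and replicate 5 was high for Angptl4 (12.96, the others 12.54 to 12.60). In eMC empty, replicate 5 was high for Ptch1 (7.50, the others 6.97 to 7.02), Gdnf (4.24, the others 3.51 to 3.56) and Zfp811 (2.84, the others 2.51 to 2.54) and low for Celf4 (2.85, the others 3.25 to 3.32). Replicate 6 was high for Cox8b (12.24, the others 11.98 to 12.02) and Slc44a3 (3.68, the others 3.22 to 3.25) and low for Pdgfd (6.57, the others 7.14 to 7.19). Replicate 4 was high for Slc2a3 (7.87, the others 6.78 to 6.95) and low for Sall2 (4.82, the others 5.64 to 5.76).

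Among the control probe sets of the deposited arrays, the poly-A control dap was high in eMC empty 4 (12.35, the others 11.94 to 11.99), and thr was high in eMC empty 7 (8.21, the others 4.93 to 5.48). The poly-A control phe, which entered no gene comparison, was higher in every eMC CIC-DUX4 array than in every eMC empty array, by 3.46 log2 units on average.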

How the results depend on the processing

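Counts are given as total, higher and lower on the quantile scale, then the same on both scales. They were 1597, 1003 and 594, and 1002, 955 and 47. Leaving out each array in turn gave 1592 to 1663, 998 to 1037 and 592 to 626, and 934 to 1039, 885 to 989 and 44 to 50. With all 4 groups in the fit they were 826, 491 and 335, and 496, 479 and 17. By adjusted p alone they were 6894, 3717 and 3177, and 3139, 2345 and 794; at an adjusted p under 0.01 and a log2 fold change of 2 they were 206, 155 and 51, and 157, 154 and 3. Deposited values gave 6303, 5733 and 570. Scaling to the same 75th percentile gave 3472, 81 and 3391, and to the hybridization controls 11635, 11633 and 2. Scaling to the same median gave 0 calls in limma, 0 higher and 0 lower, with 2976 genes at an unadjusted p under 0.05 (2507 higher, 469 lower); the medians of eMC CIC-DUX4 span 1.85 to 7.03. Both-scale lower counts were 26 with the replicate block and 92 without eMC CIC-DUX4 5 and 6; without those 2 arrays 891 of the 955 higher and 46 of the 47 lower genes were still called on the quantile scale. No label says whether the replicate numbers pair the arrays. Apart from the both-scale lower count, the block moved no count by over 1.5 times. Another offset, the other filters, the other spread models, the mean over probe sets and quantile normalization over the 8 arrays kept all 6 counts within 1.5 times. The causes of these shifts were not tested. Of 117 named genes, 50 lost the call with all 4 groups in the fit, 12 with the mean over probe sets, and 64 at the stricter threshold. Under 75th percentile scaling 55 lost the call and 12 more turned over. Under median scaling, which called 0 genes, 112 lost it and 4 more turned over. Log2 fold changes turned over under median scaling for Gdf10 (-0.47), Neo1 (-0.068), Angptl4 (-0.27) and Ddit3 (-0.47). Under 75th percentile scaling they did for Gdf10 (-2.54), Neo1 (-2.14), Mmp8 (-0.069), Col5a3 (-0.78), Osr1 (-0.78), Celf4 (-0.027), Angptl4 (-2.34), Ddit3 (-2.55), Gadd45a (-0.076), Thy1 (-1.62), Cd68 (-1.36) and Hoxa10 (-0.94). Under scaling to the hybridization controls they did for Samd9l (0.69), Myl4 (1.00), Ifit1 (0.50), Irgm1 (0.78), Tnnc2 (0.64), Mlec (0.39), Mylpf (0.19), Ccl7 (0.10), Hp (0.089), Usp18 (1.09), Acta1 (0.71), Ch25h (1.00), Hsph1 (1.09), Tyms (1.00), Nop56 (1.01), Nme1 (0.30), Cox8b (0.84) and Psmb10 (0.96). No array file of background or detection was used, so signal over background rests on the dip.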
